A study of Homo sapiens with 6 samples.

Results

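The insulin-like growth factor (IGF) genes examined here are 10 genes chosen by name from the 29185 genes of the deposited table: the receptors IGF1R and INSR, the adaptors IRS1 and IRS2, and the binding proteins IGFBP2, IGFBP3, IGFBP4, IGFBP5, IGFBP6 and IGFBP7. All 10, called the members in what follows, were found. They were measured by poly(A) RNA-seq in SKOV3, an established human ovarian cancer cell line, in 3 libraries of control cells (sh-NC) and 3 libraries of cells in which KLF5, a zinc finger transcription factor, had been silenced (sh-KLF5). According to the study's methods, the knockdown sequence was carried by a pLKO lentiviral vector with EGFP and puromycin resistance and stable cells were selected with puromycin, whereas the sample labels give the genotype of the sh-NC cells as WT. The labels do not say whether the libraries of a group came from separate cultures, while the study speaks in general of independent repetitions without naming the libraries, so the p-values measure the spread between these libraries, which may be partly technical. With 1 labelled knockdown line, KLF5 loss and other effects of the vector or the selection cannot be told apart.

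In this pathway the ligands IGF1, IGF2 and insulin bind the receptor tyrosine kinases IGF1R and INSR, which phosphorylate the adaptors IRS1 and IRS2 and through them recruit PI3-kinase and activate AKT. Secreted IGF binding proteins hold the ligands outside the cell, and proteases such as PAPPA (pappalysin-1) cut some of them and set the ligands free. The pathway is known for growth and survival signalling in epithelial cancers, ovarian cancer among them, and tumour cells often secrete binding proteins of their own.

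After KLF5 silencing, IRS1, IRS2, IGFBP3 and IGFBP7 were higher and IGFBP6 was lower, while IGF1R, INSR and IGFBP4 did not pass the test and IGFBP2 and IGFBP5 were almost without reads. The rises were about 2.0-fold for IRS1, 1.5-fold for IRS2, 2.01-fold for IGFBP3 and 2.10-fold for IGFBP7, and IGFBP6 fell to 64.8% of its control mean. Values are normalized counts, that is, the reads counted on a gene divided by 1 size factor per library. Groups were compared with limma on log2(normalized count + 1) over the 15747 genes with enough reads, a gene passed the test with a Benjamini-Hochberg adjusted p under 0.05, and the study's fold threshold is a log2 fold change above 1 or below -1. Of the 10 genes, 8 had enough reads to be tested, 4 of them passed as higher and 1 as lower, against 6.06% and 6.88% of all tested genes. The median log2 fold change was 0.34 over the 8 genes and -0.0019 over all tested genes. IGFBP3 and IGFBP7 also passed the fold threshold upward and none of the 8 did so downward, which 1.91% and 3.38% of all tested genes did (5.3% together), and IRS1 stood at 0.9998, just short of it. In 4 of the 8 genes every sh-KLF5 library lay above every sh-NC library and in 1 every one lay below, against 15.4% and 15.9% of all tested genes (31.4% together). For a single gene, 3 libraries against 3 can give no two-sided exact permutation p under 0.1. All 5 genes reached that value, as every gene without overlap must, so it adds nothing to the absence of overlap.

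**Figure D1:**
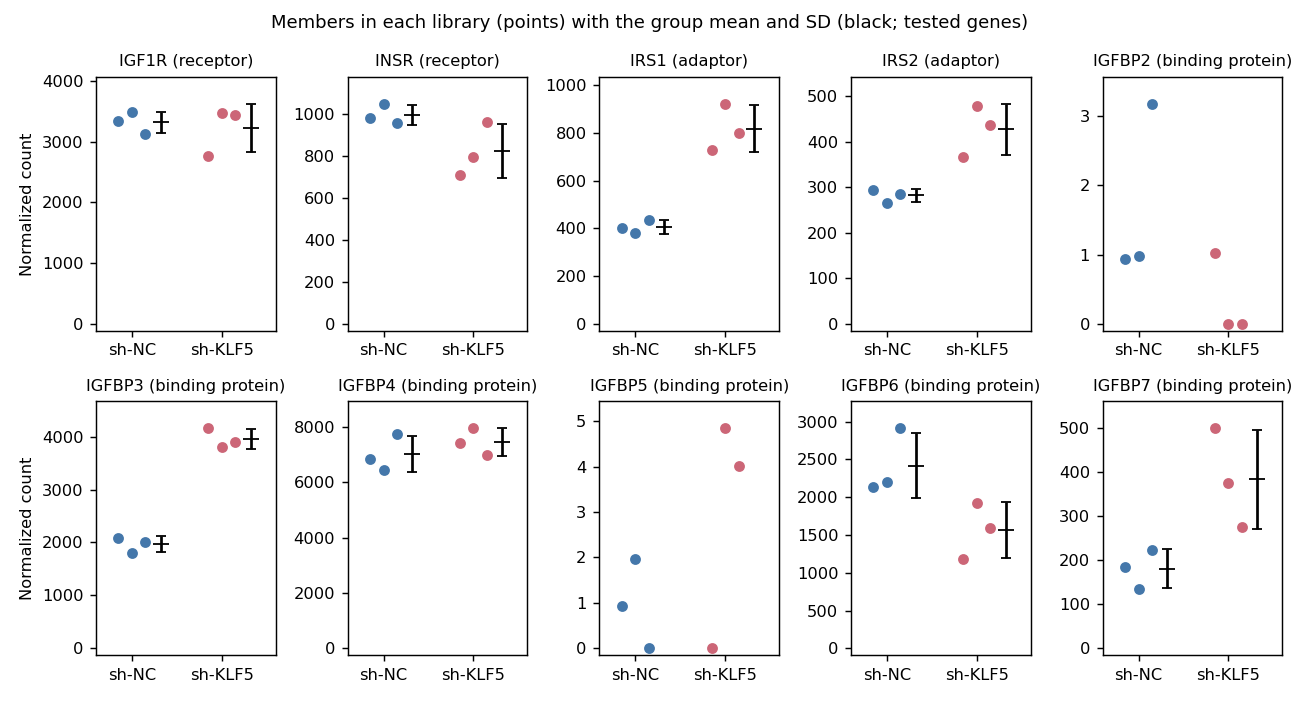
Normalized count (y axis, a scale of its own for each gene, with 0 included) of the 10 genes in each library. Blue points are the 3 sh-NC libraries and red points the 3 sh-KLF5 libraries, and black bars give the group mean and SD for the 8 tested genes. IRS1, IRS2, IGFBP3 and IGFBP7 show no overlap between the groups with sh-KLF5 above, IGFBP6 shows none with sh-KLF5 below, and the other genes overlap.

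The promoters of the genes whose groups did not overlap are shown because KLF factors are known to bind CACCC and GC-rich boxes. RefSeq windows (GRCh38.p14) were at hand for 9 of the 10 genes, and for 4 of these 5, IGFBP7 being the exception. The 250 bases before the RefSeq start are printed 5′ to 3′ on the strand of the gene, with capitals for CACCC and CCGCCC on either strand (GGGTG and GGGCGG), 2 motifs that can overlap each other.
IRS1, chr2:226799821-226800070, minus strand: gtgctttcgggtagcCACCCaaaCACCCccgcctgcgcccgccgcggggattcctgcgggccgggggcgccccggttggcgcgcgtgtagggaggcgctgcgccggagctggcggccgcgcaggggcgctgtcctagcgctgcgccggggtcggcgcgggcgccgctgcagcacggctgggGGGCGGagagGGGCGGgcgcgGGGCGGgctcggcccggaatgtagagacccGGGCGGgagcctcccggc
IRS2, chr13:109786584-109786833, minus strand: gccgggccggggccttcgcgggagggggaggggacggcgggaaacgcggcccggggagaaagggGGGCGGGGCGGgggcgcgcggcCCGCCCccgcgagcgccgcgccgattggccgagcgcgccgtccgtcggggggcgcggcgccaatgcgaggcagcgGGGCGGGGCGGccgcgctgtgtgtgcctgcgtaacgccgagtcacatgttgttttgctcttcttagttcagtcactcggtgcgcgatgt
IGFBP3, chr7:45921273-45921522, minus strand: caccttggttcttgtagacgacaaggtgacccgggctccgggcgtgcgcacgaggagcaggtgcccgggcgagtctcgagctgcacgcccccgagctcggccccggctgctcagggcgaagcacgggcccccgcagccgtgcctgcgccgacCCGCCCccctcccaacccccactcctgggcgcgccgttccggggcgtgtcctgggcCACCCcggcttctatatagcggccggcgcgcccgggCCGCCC
IGFBP6, chr12:53097417-53097666, plus strand: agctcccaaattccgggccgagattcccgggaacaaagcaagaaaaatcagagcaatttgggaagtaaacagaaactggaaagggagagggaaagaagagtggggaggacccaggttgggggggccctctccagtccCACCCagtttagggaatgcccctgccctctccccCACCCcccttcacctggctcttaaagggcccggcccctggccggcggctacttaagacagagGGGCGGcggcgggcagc

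The window of IRS1 held 2 matches to CACCC and 4 to CCGCCC, that of IRS2 0 and 5, that of IGFBP3 1 and 2, and that of IGFBP6 2 and 1. Among 35116 RefSeq windows of the same length, 54.7% held at least 1 CACCC and 42.6% at least 1 CCGCCC. At least as many CCGCCC as in IRS1 and IRS2 were held by 7.63% and 4.15%. The share of G and C was 80.8% in the window of IRS1, 76.4% in IRS2, 76.0% in IGFBP3 and 61.2% in IGFBP6. The median over all windows was 58.0%, and the match counts were not adjusted for this share. The window of IGF1R, whose transcript did not pass the test, held 1 and 2 matches, and that of INSR 0 and 4. Matching letters stood before genes that rose, that fell and that did not pass, and a link to the direction of change was not tested. A match is not a binding site. The RefSeq starts of IGFBP3 and IGFBP6 lie 602 and 231 bases inside the gene limits of the deposited table, so other starts of these genes are not covered.

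The silenced gene and the identity of the cells were checked first. KLF5 (ENSG00000102554, chromosome 13) had 4371, 4425 and 4494 normalized counts in the sh-NC libraries and 1745, 1440 and 1436 in the sh-KLF5 libraries, so that 34.8% of the control level was left (log2 fold change -1.53, adjusted p = 2.59e-07 by limma). In the 5 libraries whose reads were taken as recovered, the totals lay between 15852319 and 17543896 reads. The depth of sh-KLF5 library 3 was not determined here. After division by the size factors, the totals of all 6 libraries lay between 16008055 and 16916113. The epithelial markers KRT8, KRT18, ERBB2, MUC1, PAX8 and EPCAM were all detected. The summed level over 7 markers, KRT19 included, was 25607 to 30362 in sh-NC and 11458 to 16347 in sh-KLF5. Most of this sum was KRT8, with means of 21820 and 9817. KRT8, KRT18 and MUC1 passed as lower, 3 of the 7, against 6.88% of all tested genes. ERBB2, PAX8 and EPCAM did not pass (log2 fold change -0.33, -0.25 and -0.03, adjusted p = 0.124, 0.406 and 0.954, limma). KRT19 was low, with 1.97 to 13.8 normalized counts in sh-NC and 8.02 to 16.5 in sh-KLF5, and did not pass. Of 6 fibroblast markers, which mesenchymal-like cancer cells can also express, 5 were tested. Sums over the 6 ran from 1101 to 1575 in sh-NC and from 399 to 753 in sh-KLF5. DCN, COL3A1 and PDGFRA passed as lower, 3 of the 5, against 6.88% of all tested genes. None passed as higher, against 6.06%. PDGFRA was at 0, 0 and 2.01 in sh-KLF5. LUM and COL1A1 did not pass (log2 fold change -0.45 and 0.3, adjusted p = 0.36 and 0.539, limma). Endothelial sums were 66.1 to 87.0 and 34.1 to 73.7, with CDH5 at 0 in every sh-KLF5 library. The leukocyte marker PTPRC was at 0 in every sh-NC library and at most 1.02 in sh-KLF5, and CD14 had 149 to 222 and 190 to 379 normalized counts (log2 fold change 0.66, adjusted p = 0.0729, limma). The part of these marker levels in the results for the members was not tested. In bulk RNA, fewer cells expressing a gene and less of its RNA per cell cannot be told apart.

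Of the receptors, IGF1R (ENSG00000140443, chromosome 15 of GRCh38, 98648539 to 98964530) binds both IGFs and drives growth signalling. Its normalized counts were 3342, 3484 and 3131 in the sh-NC libraries and 2764, 3480 and 3437 in the sh-KLF5 libraries. The groups overlapped, and library 1 was the low one of sh-KLF5. The means were 3319 ± 178 and 3227 ± 402 (SD, n = 3), a log2 fold change of -0.05 with a 95% interval from -0.30 to 0.21 (adjusted p = 0.85, limma), so that changes beyond a factor of 0.811 or 1.16 lie outside the interval. Without sh-KLF5 library 1 its sign turned (0.06, adjusted p = 0.717).

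INSR (ENSG00000171105, chromosome 19, 7112255 to 7294034), the insulin receptor, which also forms hybrids with IGF1R, had 984.1, 1051 and 957.1 normalized counts in the sh-NC libraries. Its sh-KLF5 libraries had 710.4, 794.7 and 964.6, so that the third reached into the control range and the other 2 lay below it. The log2 fold change was -0.29 with an unadjusted 95% interval from -0.56 to -0.01, and INSR did not pass the test (adjusted p = 0.169, limma). On the 5 libraries with recovered reads, which leave out the overlapping sh-KLF5 library 3, INSR passed with DESeq2 (-0.41, adjusted p = 0.0398) and did not pass with edgeR (-0.40, adjusted p = 0.0568) or limma (-0.41, adjusted p = 0.0568). Per kilobase of exon, IGF1R stood 2.45 to 2.55 times above INSR in the sh-NC libraries and 2.67 to 3.28 times in the sh-KLF5 libraries, which describes the balance of the 2 receptor transcripts and was not tested.

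Both adaptors rose. IRS1 (ENSG00000169047, chromosome 2, 226731317 to 226799759), the main docking protein of both receptors in many epithelial cells, had 402.2, 381.3 and 437.2 normalized counts in the sh-NC libraries and 729.8, 922.8 and 799.1 in the sh-KLF5 libraries. Every sh-KLF5 library was well above the highest control library. The means were 406.9 ± 28.2 and 817.2 ± 97.8 (SD, n = 3), a fitted rise of 2.0-fold (95% interval 1.65 to 2.42, log2 standard error 0.13, adjusted p = 6.48e-05 from limma). IRS1 passed the test without any 1 library, with log2 fold changes from 0.91 to 1.08, a range that spans the fold threshold, and with TMM factors or library size alone it was just past it (1.01).

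IRS2 (ENSG00000185950, chromosome 13, 109752698 to 109786568), the related docking protein best known from insulin action in liver and beta cells, had 295.2, 266.0 and 286.5 normalized counts in the sh-NC libraries and 366.9, 478.4 and 438.2 in the sh-KLF5 libraries. The groups did not overlap, although the gap was narrower than for IRS1. IRS2 rose 1.5-fold (95% interval 1.22 to 1.86, adjusted p = 0.0108 from limma), from 282.6 ± 14.9 to 427.8 ± 56.4 (SD, n = 3). It no longer passed without sh-NC library 2 (log2 fold change 0.55, adjusted p = 0.0705) or without sh-KLF5 library 2 (0.50, adjusted p = 0.0601). Per kilobase, IRS1 was 1.11 to 1.25 times IRS2 in the sh-NC libraries and 1.49 to 1.63 times in the sh-KLF5 libraries, ranges that did not overlap and were not tested.

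The binding proteins went different ways. IGFBP3 (ENSG00000146674, chromosome 7, 45912245 to 45921874), the main IGF carrier of blood and a growth inhibitor in many cultured cells, had 2089, 1798 and 2018 normalized counts in the sh-NC libraries. The sh-KLF5 libraries had 4164, 3806 and 3902, each far above the controls and close to one another. Its rise of 2.01-fold (95% interval 1.71 to 2.37, log2 standard error 0.11, adjusted p = 1.28e-05 from limma) had the smallest adjusted p of the 10 genes. Refitting on 5 libraries gave log2 values from 0.95 to 1.05, each past the test. It fell short of the fold threshold without sh-NC library 2 (0.95) or sh-KLF5 library 1 (0.97). No exonic base of IGFBP3 is shared with another gene of GENCODE release 29.

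IGFBP7 (ENSG00000163453, chromosome 4, 57030773 to 57110385), a secreted matrix-associated protein that binds IGFs weakly and also binds insulin, had 185.3, 134.0 and 222.8 normalized counts in the sh-NC libraries. Its sh-KLF5 libraries had 499.4, 373.6 and 275.7, and the lowest of these stood only a little above the highest control. The means were 180.7 ± 44.6 and 382.9 ± 112 (SD, n = 3), a rise of 2.10-fold with a wide 95% interval from 1.53 to 2.88 (adjusted p = 0.00293 from limma). The log2 fold change of 1.07 was 0.86 without sh-KLF5 library 1 and 0.87 without sh-NC library 2, both short of the fold threshold, and IGFBP7 passed the test in either case (adjusted p = 0.00516 and 0.0242, limma). Exons of POLR2B on the opposite strand cover 14.0% of its exonic bases, and the strand setting of the counting is not given in the sources used here. POLR2B itself had mean normalized counts of 2790 in sh-NC and 2630 in sh-KLF5.

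IGFBP6 (ENSG00000167779, chromosome 12, 53097436 to 53102345), the binding protein with a marked preference for IGF2, went the other way. It had 2131, 2205 and 2917 normalized counts in the sh-NC libraries and 1180, 1923 and 1594 in the sh-KLF5 libraries. The groups did not overlap, and the control group was spread by its high library 3. IGFBP6 fell by 0.64 on the log2 scale, which is a 1.56-fold fall (95% interval 1.22 to 1.99, adjusted p = 0.0162 from limma), from 2418 ± 434 to 1566 ± 372 (SD, n = 3). Without sh-NC library 3 the log2 fold change was -0.50 and did not pass (adjusted p = 0.123).

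IGFBP4 (ENSG00000141753, chromosome 17, 40443461 to 40457731), an inhibitor of IGF action and the classical substrate of PAPPA, was the most abundant of the 10 genes. It had 6859, 6461 and 7748 normalized counts in the sh-NC libraries and 7433, 7968 and 6974 in the sh-KLF5 libraries. The groups overlapped in part, with the highest library in sh-KLF5 and the lowest in sh-NC, and the log2 fold change was 0.09 with a 95% interval from -0.16 to 0.34 (adjusted p = 0.677, limma). Per kilobase its level exceeded that of 99.4% of all tested genes.

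IGFBP2 and IGFBP5, which lie side by side on chromosome 2 (216632828 to 216664436 and 216672105 to 216695525), were hardly detected. IGFBP2, which is often abundant in ovarian carcinoma, had 0.931, 0.985 and 3.18 normalized counts in the sh-NC libraries and 1.02, 0 and 0 in the sh-KLF5 libraries. IGFBP5, a binding protein that attaches to matrix, had 0.931, 1.97 and 0 in the sh-NC libraries and 0, 4.85 and 4.01 in the sh-KLF5 libraries. These values lie near 3 reads, which is as much as an empty count permits by counting error alone and equals 2.79 to 3.18 normalized counts in the 5 libraries with recovered reads. Both were below the filter, no test or fold is given, and a difference was not detectable at this depth.

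The order of the levels per kilobase of exon shifted with these changes. In sh-NC the order was IGFBP4 (3190 ± 299 normalized counts per kilobase, SD, n = 3), IGFBP6 (1800 ± 322), IGFBP3 (431 ± 33.2), IGF1R (238 ± 12.7), INSR (95.4 ± 4.65), IGFBP7 (93.6 ± 23.1), IRS1 (40.9 ± 2.83) and IRS2 (34.7 ± 1.84). Among these neighbours, only INSR and IGFBP7 overlapped across the sh-NC libraries. In sh-KLF5, IGFBP7 (198 ± 58.1) had moved above INSR (78.8 ± 12.4) and overlapped IGF1R (231 ± 28.8), and IRS1 (82.1 ± 9.82) overlapped INSR. IGFBP3 (866 ± 40.5) overlapped IGFBP6 (1160 ± 277), below which it had clearly stood in sh-NC.

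**Figure D2:**
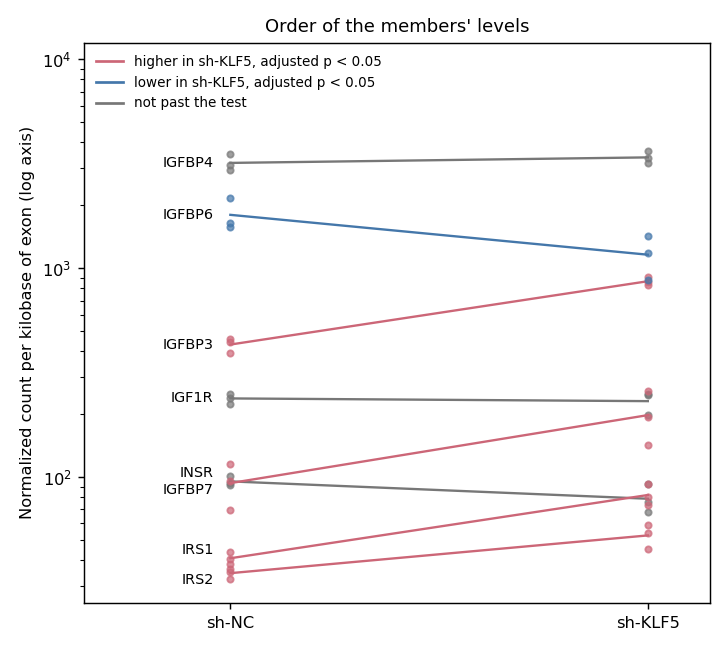
Level of the 8 tested genes per kilobase of exon (log axis) in sh-NC and sh-KLF5. Points are libraries and lines join the group means, red for genes that passed as higher, blue for lower and grey for those that did not pass. IGFBP3 climbs from 431 to 866 and reaches the lowest IGFBP6 library, and IGFBP7 crosses INSR.

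The mixture of binding protein transcripts was different although its sum was similar. The 6 binding proteins together amounted to 5513 ± 644 normalized counts per kilobase in the control libraries and to 5618 ± 400 after KLF5 silencing (SD, n = 3). IGFBP4 made up 56.4% to 59.3% of it in the sh-NC libraries and 59.2% to 62.3% in the sh-KLF5 libraries. IGFBP6 made up 30.1% to 34.7% and then 16.2% to 23.5%, and IGFBP3 7.07% to 8.7% and then 13.7% to 16.8%. IGFBP7 contributed 1.38% to 1.85% in sh-NC and 2.67% to 4.77% in sh-KLF5. The ratio of IGFBP3 to IGFBP6 thus moved from 0.204 to 0.289 in the sh-NC libraries to 0.583 to 1.04 in the sh-KLF5 libraries, the highest being sh-KLF5 library 1, where IGFBP6 was lowest. These shares are a description of genes tested above and were not tested again. The order, sums, ratios and shares between genes depend on the length used, which is that of all annotated exons together. The length of the transcripts in use was not determined.

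**Figure D3:**
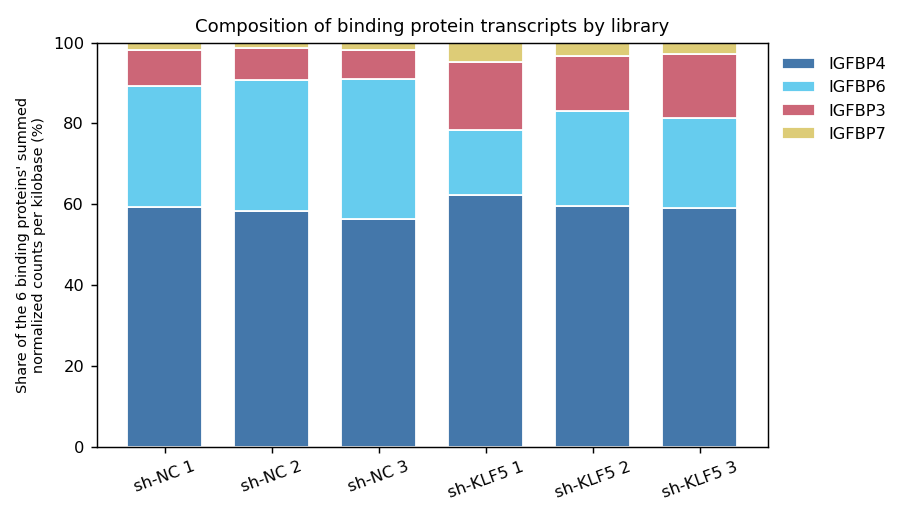
Share of each binding protein (y axis, %) in the summed normalized counts per kilobase of the 6 binding proteins, 1 stacked bar per library. IGFBP2 and IGFBP5 are too low to be drawn. IGFBP4 holds between 56.4% and 62.3% in every library, and in sh-KLF5 the IGFBP6 part is smaller and the IGFBP3 and IGFBP7 parts are larger.

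Around these genes, a wider list of 51 pathway genes was described by role. Of these, 41 were tested, 6 passed as higher and 4 as lower, with a median log2 fold change of 0.02. The list was drawn up with earlier results known, and 24.4% of them passed in either direction against 12.9% of all tested genes. The ligand IGF2 had 3.72, 3.94 and 6.37 normalized counts in the sh-NC libraries and 3.06, 0.970 and 0 in the sh-KLF5 libraries, near the counting limit. Its groups did not overlap, with sh-KLF5 below, but IGF2 was below the filter and was not tested. IGF1, INS and the binding protein IGFBP1 were not found by name among the 29185 genes. IGF2R, the clearance receptor of IGF2, was abundant with 7624 ± 83.8 and 8586 ± 972 normalized counts (SD, n = 3, adjusted p = 0.404, limma). The orphan receptor INSRR and the carrier protein IGFALS had fewer than 10 normalized counts in every library, and IGFBPL1 had 30.2 ± 8.27 and 28.5 ± 7.20 (SD, n = 3, adjusted p = 0.92, limma).

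Of the proteases that cleave binding proteins and their inhibitors, 3 of the 4 tested genes passed as higher, against 6.06% of all tested genes and with STC1 dependent on single libraries, and the median log2 fold change was 0.84. PAPPA (ENSG00000182752, chromosome 9, 116153804 to 116402322), the protease that cleaves IGFBP4 and releases IGFs, had 413.4, 247.3 and 241.9 normalized counts in the sh-NC libraries and 903.0, 933.4 and 961.5 in the sh-KLF5 libraries. Every sh-KLF5 library held more than any control library, and the rise of 3.19-fold (95% interval 2.47 to 4.13, adjusted p = 6.59e-06 from limma) was larger than that fitted for any of the 10 genes. PAPPA passed in every fit that left out 1 library, with log2 fold changes from 1.54 to 1.93. Of its exonic bases, 21.2% are covered by the antisense gene PAPPA-AS1, which is not among the genes of the deposited table. How reads on the shared bases were counted is not given in the sources used here.

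STC2, a stanniocalcin that inhibits PAPPA, rose as well, from 561.4, 485.8 and 547.5 normalized counts in the sh-NC libraries to 942.8, 1063 and 1607 in the sh-KLF5 libraries (2.21-fold, 95% interval 1.73 to 2.82, adjusted p = 0.000169 from limma). Its groups did not overlap, with sh-KLF5 library 3 the highest. STC1, its paralog with the same activity, had 1960, 1480 and 1591 and then 2871, 2709 and 1805 normalized counts, so that the groups overlapped, with a log2 fold change of 0.53 (adjusted p = 0.0391, limma). STC1 did not pass without sh-NC library 2 or 3 or without sh-KLF5 library 1 or 2 (adjusted p from 0.156 to 0.197), nor with library size as the only scaling (0.0564). The protease HTRA1 did not pass (log2 fold change 0.23, adjusted p = 0.294), and PAPPA2 was at 0 in every library except sh-KLF5 library 1 with 2.04.

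Among the inhibitors of receptor and PI3-kinase signalling, 11 genes were tested, of which 2 passed as higher and 1 as lower, against 6.06% and 6.88% of all tested genes. SOCS2, which curbs growth hormone and IGF signalling, fell from 643.4, 584.3 and 557.1 normalized counts in the sh-NC libraries to 358.8, 272.7 and 289.8 in the sh-KLF5 libraries (log2 fold change -0.96, adjusted p = 0.000191, limma). SOCS1, a relative that acts on cytokine receptors and can target IRS proteins for degradation, rose from 40.0, 41.4 and 28.6 to 101.9, 72.8 and 87.2 (log2 fold change 1.23, adjusted p = 0.0032, limma). The groups of both genes were far apart, in opposite directions. PTPN1, the tyrosine phosphatase of the insulin receptor, rose 1.34-fold (adjusted p = 0.0166, limma) and did not pass without sh-NC library 1 or 2 (0.0986 and 0.0993).

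Of the 9 tested PI3-kinase and AKT genes, 1 passed as higher and 2 as lower, against the same 6.06% and 6.88%. PIK3R1, the regulatory subunit that docks on IRS proteins, had 364.0, 346.8 and 286.5 normalized counts in the sh-NC libraries and 228.3, 230.9 and 187.5 in the sh-KLF5 libraries (log2 fold change -0.62, adjusted p = 0.0136, limma). The catalytic subunit PIK3CA was lower at -0.40 (adjusted p = 0.043, limma) and the catalytic subunit PIK3CD higher at 0.64 (adjusted p = 0.0176, limma). These 3 calls were lost when single libraries were left out. PIK3R1 did not pass without sh-NC library 1 or 2 or sh-KLF5 library 3 (adjusted p from 0.0514 to 0.0889), PIK3CD without sh-NC library 1 or 2 or sh-KLF5 library 2 (0.0578 to 0.101), and PIK3CA in 5 of the 6 fits that left out 1 library, all except the one without sh-KLF5 library 1 (up to 0.21). PIK3CA also did not pass with library size only (0.0581), TMM factors (0.0503), edgeR (0.121) or DESeq2 (0.122), the last 2 on 5 libraries. Among the other 6 tested adaptors, GRB10, which binds and restrains both receptors, was lower at -0.44 (adjusted p = 0.0226, limma) and did not pass without any 1 of the sh-NC libraries or without sh-KLF5 library 3 (0.0527 to 0.12), nor with edgeR (0.0784) or DESeq2 (0.0667) on 5 libraries. None of the 9 tested mTOR and FOXO genes passed with limma, where 12.9% of all tested genes did. In 5 of these 9 the groups did not overlap, 3 with sh-KLF5 above and 2 with it below, against 31.4% of all tested genes.

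**Figure D4:**
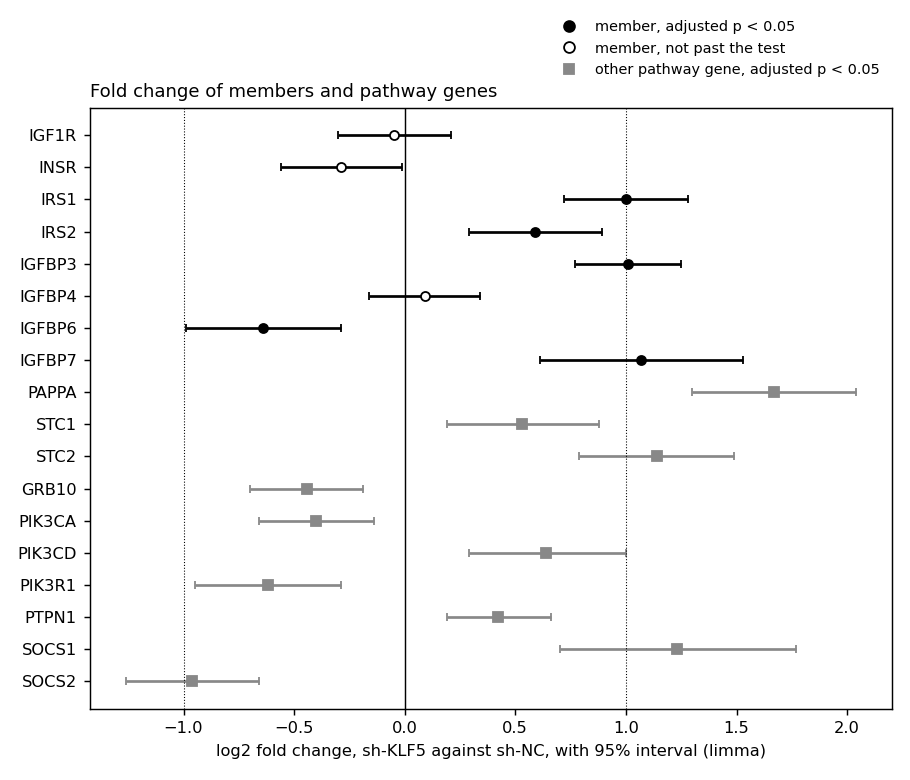
Log2 fold change (x axis) of sh-KLF5 against sh-NC with its unadjusted 95% interval from limma for the 8 tested genes (black circles, open where the test was not passed) and for the 10 pathway genes that passed (grey squares). Dotted lines mark the fold threshold of 1 and -1. PAPPA at 1.67 lies farthest to the right, and the intervals of IGF1R and IGFBP4 include 0. IRS1 and IGFBP3 lie on the line at 1, and IGFBP7 at 1.07 lies just past it with an interval that spans it.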

How the data were processed

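RNA from SKOV3 cells was sequenced in 3 sh-NC and 3 sh-KLF5 libraries, and groups and replicate numbers were taken from the sample titles. The authors deposited 1 table with a normalized signal (normalized count) per gene and library, that is, gene-level reads after division by a size factor. The submitters' processing notes name HISAT2 2.0.5, featureCounts 1.5.0-p3, DESeq2 1.20.0 and hg38. The table also holds the authors' group means, fold changes and p-values, which were not used, and gene lengths, which equal the union of exons in GENCODE release 29 for 100% of the genes. The 10 genes, the wider lists and the tests were chosen with earlier results of these data known.

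The comparison used limma 3.58.1 under R 4.3.3 with its trend and robust options on log2(normalized count + 1) and Benjamini-Hochberg adjustment over the 15747 genes that passed filterByExpr of edgeR (minimum count 10, run on normalized counts). Fold changes are on this scale, which understates the change of low genes. Whole reads were recovered for 5 libraries, in which 100% of the values were whole multiples of the smallest (tolerance 1e-06). For sh-KLF5 library 3, whose smallest value lies close to 1, whole reads were not taken as recovered. edgeR 4.0.16 and DESeq2 1.42.0 were therefore run on 5 libraries only, as alternatives chosen after seeing the data. Libraries of the same group differed beyond counting error, and each was counted once. Chi-square divided by its degrees of freedom was 4.33, 8.41 and 7.98 for the pairs of sh-NC libraries. It was 23.5 for sh-KLF5 libraries 1 and 2, the only sh-KLF5 pair with recovered reads. By rule, the text names KLF5, the 10 genes, the ligands, receptors and carriers of the wider list, its genes past the test and markers of the cell type. HTRA1 and PAPPA2 were chosen after their values were seen. The fitting was tested on simulated data. Motifs were counted on both strands of RefSeq windows (GRCh38.p14), and figures were drawn with matplotlib 3.10.9.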

Additional observations from a re-analysis of the deposited data

How the results depend on the processing

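Directions were kept by the tested members and by KLF5 in the alternatives run (pseudocounts of 0.1 and 5, no filter or at least 10 in every library, library size or TMM factors, the replicate block, edgeR and DESeq2 on 5 libraries, and each library left out), with the exception of IGF1R, which ranged from -0.11 to 0.06 without 1 library. Of the wider list, IGFBPL1 turned as well (-0.29 to 0.14 without 1 library). KLF5 stayed past the threshold in all of them, between -1.62 and -1.48.

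Without 1 library, the number of members that passed as lower ranged from 0 to 1 and of those past the fold threshold from 0 to 3, where IRS1, IGFBP3 and IGFBP7 lie close to that threshold. No member passed as lower without sh-NC library 3, and none passed the fold threshold without sh-NC library 2. Pathway genes ranged from 3 to 7 higher and from 1 to 6 lower, and all genes from 515 to 1265 higher and from 676 to 1441 lower, against 955 and 1083. Fewest genes passed without sh-NC library 2 and most without sh-KLF5 library 1. DESeq2 on 5 libraries gave 2 members as lower (INSR besides IGFBP6), and edgeR and DESeq2 each gave 2 pathway genes as lower against 4. As higher they gave 7 and 8 pathway genes against 6. The causes were not tested. The fold threshold was passed by 3 members in place of 2 with library size only, TMM factors, a pseudocount of 0.1, edgeR and DESeq2.

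Replicate numbers were not taken as pairs (correlations of same-numbered deviations from the group means of 0.0588, 0.0339 and 0.0476). With the replicate block, 4 members were higher and 1 lower, 7 pathway genes higher and 4 lower, and 1291 and 1384 of all genes. The edgeR and DESeq2 fits planned on all 6 libraries were not run, since reads were recovered for 5. Depth limits IGFBP2, IGFBP5 and IGF2, which lay near the limit of 3 reads.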
